A study of Homo sapiens with 12 samples.

Results

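The kmt2d-/- line of OCI-Ly7 was compared with its wild-type parent across all genes with enough counts. OCI-Ly7 is a cell line grown from the pleural effusion of a human diffuse large B-cell lymphoma. MARS-seq, which reads barcoded 3′ ends of transcripts, supplied a count per gene. The comparison used 6 of the series' 12 samples, 3 libraries of the line labelled WT and 3 of the line labelled kmt2d-/-, none of them treated. Lines with the genotypes EZH2 Y646N (2 libraries) and kmt2d-/- + EZH2 Y646N (3 libraries, called the double mutant here) gave a further pair in which KMT2D loss could be measured with separate libraries. All mutants were made by CRISPR in OCI-Ly7. The labels give 1 line per genotype without saying whether it is 1 clone, so line and genotype cannot be told apart. They also do not say that replicates were separate cultures, so every p-value reflects the spread among these libraries alone, which may be technical. Of 28278 genes in the deposited counts, 8813 had enough counts to be tested, 8433 outside the long arm of chromosome 19 (19q) and 380 on it. The arm was kept apart because its counts were shifted as a block.

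KMT2D is a very large histone methyltransferase that places single methyl groups on lysine 4 of histone H3, mainly at enhancers, and works in a complex with UTX, PTIP, PA1 and the shared WRAD core. Its loss is among the frequent lesions of germinal centre lymphomas. EZH2 is the catalytic subunit of Polycomb repressive complex 2, which methylates lysine 27 of histone H3 and silences genes, and Y646N lies in its catalytic domain.

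Library totals in the comparison ran from 1392983 to 3107871 counts, so that 3 counts correspond to 0.965 to 2.15 CPM, where CPM scales each library to the same total. KMT2D transcripts read 27.2, 44.2 and 29.1 CPM in wild type and 41.1, 41.0 and 34.5 in the kmt2d-/- line, and EZH2 transcripts 70.2, 85.0 and 75.5 against 64.6, 65.8 and 65.1. Counts from 3′ ends do not check whether a coding sequence is disrupted, and neither gene passed the test (adjusted p = 0.739 and 0.369 by edgeR, quasi-likelihood F test, Benjamini-Hochberg). Markers of B cells summed to 6380 to 8854 CPM in wild type and 5752 to 6955 in the mutant line. Of 14 T and NK cell markers, 8 and 6 were at 0 in the groups, of 10 myeloid markers 6 and 5, and of 13 fibroblast, epithelial and endothelial markers 11 in each. The myeloid sum was 19.4 to 33.9 CPM in wild type and 11.5 to 17.5 in the mutant, most of it AIF1. Fewer cells of a type and less RNA per cell cannot be told apart in bulk RNA.

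Outside 19q, 480 of 8433 genes (5.69%) were called, meaning an adjusted p under 0.05 in edgeR's quasi-likelihood test. Of these, 275 (3.26%) were higher and 205 (2.43%) lower in the kmt2d-/- line. That split moved with the tool and the libraries, with 181 higher and 174 lower by DESeq2, 362 and 328 without a filter, and 74 lower without kmt2d-/- replicate 1 or without replicate 3. A change of at least 2-fold was called upward for 135 genes (1.6%) and downward for 50 (0.593%). The median log2 fold change over all genes outside 19q was 0.02. Among the 2811 genes of highest abundance, 87 rose and 111 fell, whereas among the 2811 of lowest abundance 81 rose and 37 fell. Called genes also differed in the base composition of their last 500 transcript bases, with a median GC content of 46.4% for genes that rose, 52.2% for genes that fell and 44.4% for all. The part of composition in these calls was not tested gene by gene. With a GC trend removed 441 of the 480 calls were kept. The number of calls rested on particular libraries. It was 213 without kmt2d-/- replicate 1, 216 without kmt2d-/- replicate 3 and 292 without wild-type replicate 1. None of the 480 genes changed sign under any alternative in which it was tested.

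**Figure D1:**
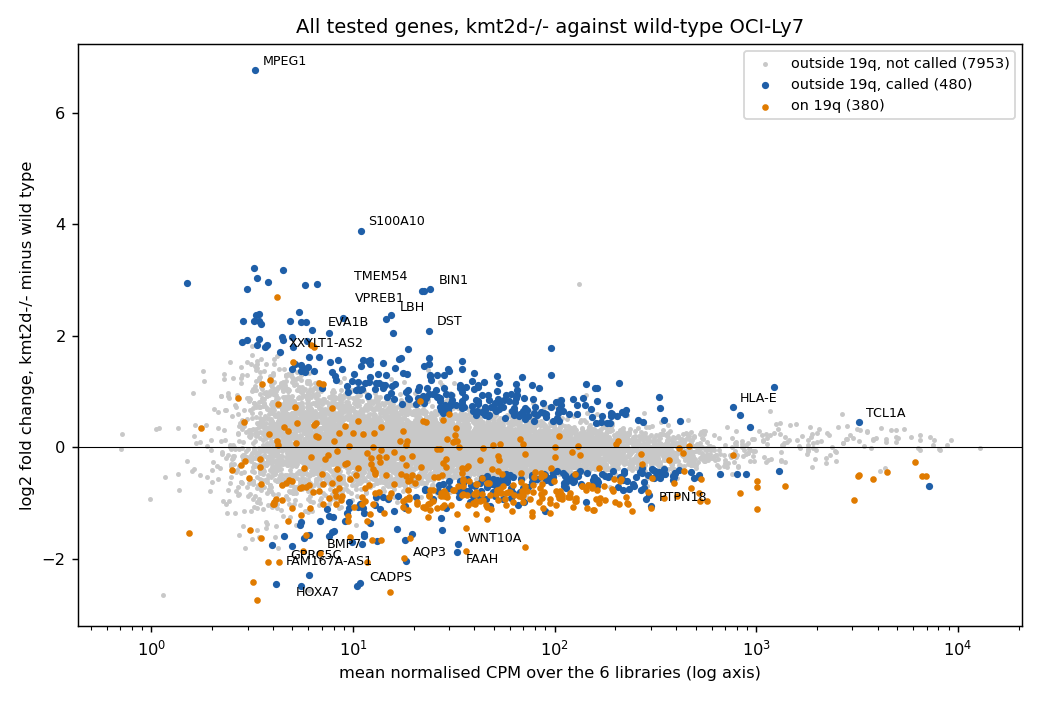
Log2 fold change (kmt2d-/- minus wild type) against the mean normalised CPM over the 6 libraries, on a log axis, for the 8813 tested genes. The 480 called genes outside 19q are blue, uncalled genes grey and the 380 genes of 19q orange. The orange points lie mostly below 0 at all abundances, while the blue points reach further up than down. The MPEG1 value is fitted against 0 wild-type counts.

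The largest rise among genes of at least 10 CPM was in S100A10, a calcium-binding protein that pairs with annexin A2 at the plasma membrane. It read 0.566, 1.36 and 1.92 CPM in wild type and 24.7, 17.5 and 19.5 CPM in the kmt2d-/- line, a log2 fold change of 3.88 ± 0.40 (SE; adjusted p = 2.42e-05, edgeR's quasi-likelihood test). ANXA2, which encodes that annexin, went the other way. Its 33.9, 41.5 and 46.8 CPM in wild type compared with 14.01, 12.1 and 17.2 CPM in the mutant line, a log2 fold change of -1.48 ± 0.23 (adjusted p = 0.000425, edgeR). Neither gene's groups overlapped, which the rule for naming the largest changes required. ANXA6, a related membrane-binding annexin, fell too (log2 -0.88, adjusted p = 0.00348, edgeR). Of 9 annexin and S100 genes tested, 1 rose and these 2 fell.

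Outside 19q, the largest fall among genes of at least 10 CPM was in HOXA7, a homeobox transcription factor of the HOXA cluster. It read 22.6, 14.96 and 15.3 CPM in wild type and 2.44, 5.37 and 2.30 CPM in the mutant line (log2 -2.49 ± 0.38, adjusted p = 0.000345, edgeR). Its neighbours HOXA4 and HOXA5, chosen after their values were seen, were low and not called, at 3.96 to 5.44 and 2.26 to 5.10 CPM in wild type and 3.06 to 4.70 and 3.36 to 4.57 in the mutant.

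VPREB1 encodes the surrogate light chain of the pre-B cell receptor, a protein of B cell precursors. It read 6.22, 4.08 and 6.90 CPM in wild type and 42.7, 32.2 and 42.5 CPM in the kmt2d-/- line (log2 2.80 ± 0.28, adjusted p = 6.81e-06, edgeR). All 3 mutant libraries lay above all wild-type libraries, which the rule for naming the largest rises required.

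The promoters of these 3 genes are shown, chosen among genes of at least 10 CPM outside 19q. They belong to the largest rise, the largest fall and the largest rise of a B cell stage gene. VPREB1 also differs from the other genes shown in CpG content. Each line gives the 250 bases before the start of the gene in RefSeq (GRCh38.p14), 5′ to 3′ on the gene's strand, with CG in capitals. HOXA7 is at chr7:27156676-27156925 (minus strand), VPREB1 at chr22:22244536-22244785 (plus strand) and S100A10 at chr1:151993860-151994109 (minus strand).
HOXA7: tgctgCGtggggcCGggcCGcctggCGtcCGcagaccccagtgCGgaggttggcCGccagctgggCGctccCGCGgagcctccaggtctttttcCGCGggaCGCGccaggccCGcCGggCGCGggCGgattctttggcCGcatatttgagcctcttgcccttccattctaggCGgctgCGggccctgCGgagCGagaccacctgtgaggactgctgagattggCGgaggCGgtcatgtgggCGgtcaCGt
VPREB1: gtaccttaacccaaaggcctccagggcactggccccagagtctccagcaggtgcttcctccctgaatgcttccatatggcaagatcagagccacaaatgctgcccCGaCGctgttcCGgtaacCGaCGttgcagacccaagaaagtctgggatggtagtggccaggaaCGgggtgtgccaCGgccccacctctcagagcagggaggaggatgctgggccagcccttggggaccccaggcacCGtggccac
S100A10: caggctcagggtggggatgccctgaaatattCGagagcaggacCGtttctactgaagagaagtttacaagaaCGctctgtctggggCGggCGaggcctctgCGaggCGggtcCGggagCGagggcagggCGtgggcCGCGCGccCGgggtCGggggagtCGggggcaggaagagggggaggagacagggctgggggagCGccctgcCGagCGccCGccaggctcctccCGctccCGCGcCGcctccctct
These windows hold 28 CG in HOXA7, 8 in VPREB1 and 24 in S100A10. In the 300-base windows that reach 50 bases into each gene, 4.89% of 6528 genes had as few CG as VPREB1. The share was 68.4% for HOXA7 and 71.5% for S100A10. The files hold no methylation or chromatin measurement, so these are descriptions of the sequence.

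Further large rises involved membrane and cytoskeletal proteins. BIN1, a membrane-bending BAR domain protein, read 3.96, 6.12 and 6.90 CPM in wild type and 34.1, 48.3 and 44.8 CPM in the mutant line (log2 2.84 ± 0.28). TMEM54, a membrane protein, went from 4.22 to 6.79 CPM to 36.2 to 43.3 CPM (log2 2.80 ± 0.28). DST, a giant linker of cytoskeletal filaments, went from 8.16 to 10.2 CPM to 36.2 to 42.7 CPM (log2 2.09 ± 0.23). The groups did not overlap for any of them, as the rule for naming them required. DBN1, an actin-binding protein, rose by 1.60 ± 0.27 on the log2 scale. Of 34 tested genes for actin, septins and membrane bending, 3 rose, namely BIN1, DST and DBN1. FLNA, an actin cross-linker, was called lower (-0.64), a call lost without wild-type replicate 1 or kmt2d-/- replicate 1 or 3 (adjusted p up to 0.169, edgeR). The list's median of 0.01 was near that of all genes.

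LBH, a transcriptional cofactor, rose by 2.37 ± 0.27 on the log2 scale, EVA1B by 2.30 ± 0.32, PGGHG, an enzyme of collagen sugar turnover, by 1.76 ± 0.24, BROX, a nuclear envelope repair protein, by 1.58 ± 0.25 and DENND5A, a Rab regulator, by 1.57 ± 0.31. GOLGA8B was called higher as well (1.55 ± 0.33), but it has near-identical copies, so its reads could be split among them. MPEG1, a pore-forming protein of phagocytes and activated B cells, had 0 counts in wild type and 47 over the mutant libraries, at least 15.5-fold higher with 3 counts over the group as the floor. Its mutant libraries read 3.66, 6.04 and 9.96 CPM. F12 (coagulation factor XII) was at 1.52 ± 0.317 CPM (SD, n = 3) in wild type and at 11.8 ± 0.925 CPM in the mutant line, with no overlap. MPEG1 and F12 were chosen after their values were seen.

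Among the falls, CADPS, a protein of secretory vesicle exocytosis, read 17.5, 16.7 and 19.6 CPM in wild type and 1.52, 6.71 and 3.06 CPM in the mutant line (log2 -2.44 ± 0.39). AQP3, a water and glycerol channel, read 28.3, 27.5 and 32.2 against 6.09, 6.71 and 8.42 CPM (log2 -2.05 ± 0.25). FAAH, which degrades endocannabinoids, read 51.5, 53.04 and 48.7 against 10.4, 18.1 and 14.6 CPM (log2 -1.89 ± 0.23). No library of either group crossed into the other for these 3 genes, which the rule for naming the largest falls required. GPRC5C, an orphan G protein-coupled receptor, fell by 1.74 ± 0.36 on the log2 scale, as did WNT10A, a secreted WNT ligand, by 1.74 ± 0.24. ELFN2, MYH11 (smooth muscle myosin heavy chain), SSBP3 (a partner of LIM domain factors) and RHOBTB2 fell, at log2 values of -1.56 to -1.27. FAM167A-AS1 fell by 1.67, and strand was not stated, so reads of its antisense partner cannot be told apart from it. BMP7, a growth factor, was called at -1.68, but not without wild-type replicate 1 or kmt2d-/- replicate 2 or 3 (adjusted p up to 0.104, edgeR). SNX8 was called at -1.36, but not without wild-type replicate 1 or kmt2d-/- replicate 3 (up to 0.128), and C1orf167 at -1.60, but not without any of the 6 libraries (up to 0.172). Among abundant genes PTPN18, a tyrosine phosphatase (462.8, 380.5 and 383.0 against 189.5, 208.1 and 188.4 CPM), and LZTS1, a growth regulator (136.4, 116.3 and 116.9 against 59.1, 59.1 and 48.3 CPM), were lower in all mutant libraries; both were chosen after their values were seen.

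**Figure D2:**
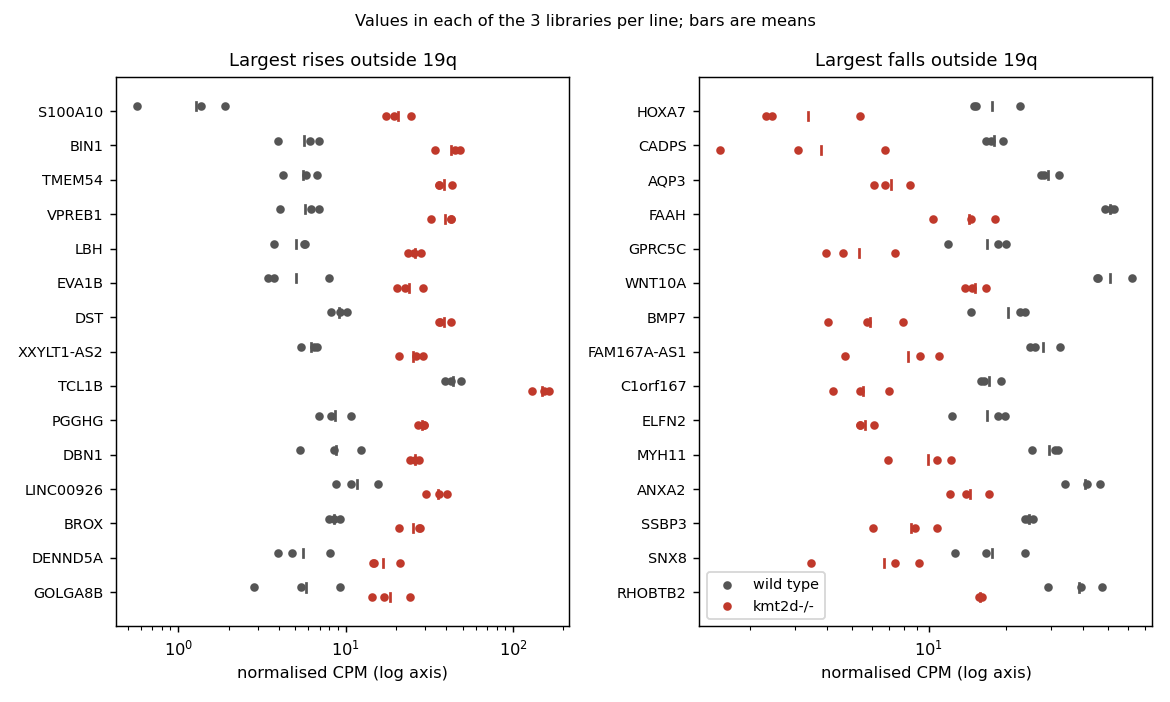
Normalised CPM (log axis) in each of the 3 wild-type (grey) and 3 kmt2d-/- (red) libraries for the 15 largest rises (left) and the 15 largest falls (right) outside 19q. Points are libraries and short bars are group means. The groups are apart for every gene shown, as the rule for naming them required.

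Genes of B cell stage and signalling moved in small numbers. Of 12 tested early B cell genes, 4 rose (VPREB1, TCL1B, CD9 and TCL1A) and 1 fell (VPREB3), with a list median of 0.48 against 0.02 for all genes. This list, like the others here, was chosen with earlier results of these data known, so its counts and median only describe its members. TCL1B, an activator of the AKT kinase, read 48.7, 39.4 and 42.6 CPM in wild type and 154.1, 163.1 and 129.4 CPM in the mutant line (log2 1.78 ± 0.14, adjusted p = 8.60e-07, edgeR). Its neighbour TCL1A, an AKT coactivator that is highly expressed in these cells, went from 2739, 2558 and 2918 CPM to 3774, 3893 and 3514 CPM (log2 0.44 ± 0.11). That call was lost without wild-type replicate 1 or 2 or kmt2d-/- replicate 1 or 2 (adjusted p up to 0.0737, edgeR). CD9, a tetraspanin, read 0, 2.04 and 1.53 CPM against 10.97, 9.40 and 10.7 CPM. VPREB3 was called at -0.43, but not without any of 5 libraries (wild-type replicates 1 and 3 and every kmt2d-/- replicate, adjusted p up to 0.205, edgeR).

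Of 21 tested germinal centre genes, 2 rose and 1 fell. With a GC trend removed, 2 were higher and 3 lower, and of all genes outside 19q 357 were higher and 280 lower. CXCR5, the receptor that draws B cells into follicles, read 29.4, 25.5 and 23.0 CPM in wild type and 51.5, 60.4 and 48.6 CPM in the mutant line (log2 1.04 ± 0.17, adjusted p = 0.000582, edgeR). All 3 mutant libraries were above all wild-type libraries. S1PR2, a receptor that confines B cells to the germinal centre, was called lower at -0.72. That call was lost without wild-type replicate 1 or kmt2d-/- replicate 1 or 3 (adjusted p up to 0.0598, edgeR). S1PR4, a receptor for the same lipid, rose from 110.3, 100.99 and 105.0 CPM to 221.2, 247.0 and 192.2 CPM (log2 1.06 ± 0.13). The homing list of 22 tested genes had 3 higher (CXCR5, S1PR4 and CCR10) and 2 lower (S1PR2 and GPER1), and a median of -0.03. CCR10 lost its call without any of 4 libraries (wild-type replicate 1 or 2, kmt2d-/- replicate 1 or 3, adjusted p up to 0.0974), and GPER1 without wild-type replicate 1 or kmt2d-/- replicate 1 or 3 (up to 0.124).

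Of 8 tested Fc receptor and Fc receptor-like genes, 3 rose and 1 fell, with a list median of 0.66. FCMR, the receptor for IgM, read 9.05, 9.86 and 12.7 CPM in wild type and 23.5, 30.9 and 25.7 CPM in the mutant line (log2 1.31 ± 0.23). FCRL2 (1.16) and FCRL5 (0.65) were called higher, and each lost the call without kmt2d-/- replicate 3 (adjusted p = 0.0760 and 0.0513, edgeR). FCGR2B, the inhibitory receptor for IgG, read 5.66, 5.78 and 7.67 CPM against 2.44, 0 and 2.30 CPM. It lost its call without wild-type replicate 3 or kmt2d-/- replicate 3 (up to 0.0594), and it shares sequence with close copies. In the list of 24 tested B cell receptor genes outside 19q, FCGR2B alone was called by edgeR, while limma-voom called 1 higher and 1 lower. With a GC trend removed, 3 of them were higher and 1 lower, and of all genes outside 19q 357 were higher and 280 lower. Of 23 tested B cell transcription factors outside 19q, ETS1 was the 1 called (0.72), and it lost the call without any of 5 libraries (all but kmt2d-/- replicate 2, adjusted p up to 0.146). Removal of a GC trend also lost ETS1 and gave 2 other factors higher and 1 lower. None of 14 plasma cell genes passed edgeR's test, DESeq2's or limma-voom's. An unadjusted p under 0.05 was found for 1, without a count over all genes to set beside it.

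IGLL5, which shares reads with immunoglobulin lambda constant genes, read 898.5, 725.6 and 752.5 CPM in wild type and 1621, 1687 and 1695 CPM in the mutant line (log2 1.07 ± 0.16). It was chosen after its values were seen.

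Genes of antigen presentation and the interferon response rose in part. Of 19 tested MHC class I genes, 4 rose and 0 fell in edgeR's test (median 0.20), and DESeq2 and limma-voom gave the same counts. At an unadjusted p under 0.05, 7 were higher and 1 lower, without a count over all genes to set beside them. HLA-E, a nonclassical class I molecule, read 620.7, 540.3 and 577.7 CPM in wild type and 940.0, 1034 and 879.6 CPM in the mutant line (log2 0.71 ± 0.12, adjusted p = 0.000480, edgeR). NLRC5, the class I transactivator, read 191.8, 184.3 and 157.9 against 257.7, 278.6 and 271.5 CPM (log2 0.60 ± 0.12, adjusted p = 0.00312). HLA-F rose by 0.55 ± 0.12. HLA-E and HLA-F belong to a family of similar genes, so their reads may be shared. TAP1, the peptide transporter, was called at 0.43, but not without any of 5 libraries (all but wild-type replicate 3, adjusted p up to 0.104). Of 16 class II genes 1 rose, HLA-DMB, which loads peptides, from 173.1, 146.6 and 202.0 CPM to 294.9, 275.9 and 259.6 CPM (log2 0.67 ± 0.13).

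Of 24 tested interferon response genes, 3 were called higher and 0 lower by edgeR (median 0.27), 2 and 0 by DESeq2, and 3 and 0 by limma-voom. At an unadjusted p under 0.05, 7 were higher and 1 lower, again without a count over all genes. IFITM2, a restriction factor, read 88.3, 81.9 and 93.5 CPM in wild type and 151.4, 174.5 and 152.8 CPM in the mutant line (log2 0.86 ± 0.14). IFITM1 and IFITM3 beside it share sequence with it and were not called (log2 -0.01 and 0.30). IFI35 rose by 1.06 ± 0.24, and TRIM22 was called at 1.06, a call lost without any of 5 libraries (all but wild-type replicate 3, adjusted p up to 0.254). LITAF rose by 1.29 ± 0.17, ADA2 by 1.02 ± 0.16, GSDME by 1.14 ± 0.19 and BTN3A2 by 0.78 ± 0.16; these 4 were chosen after their values were seen. In the CD40 and NF-kB list, CD83 (0.57) and MAP3K14 (-0.56) were called of 20 genes outside 19q. Each lost its call in leave-one-library-out fits, CD83 without any of the 6 libraries (up to 0.156) and MAP3K14 without any of 4 (wild-type replicate 1 or any kmt2d-/- replicate, up to 0.156).

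Genes of growth and division were called in small numbers, mostly lower. Of 34 tested S phase genes outside 19q, 5 fell and 0 rose in edgeR's test, with a median of -0.27. DESeq2 gave 6 and 0, limma-voom 5 and 0, and an unadjusted p under 0.05 gave 14 and 0. The number of all tested genes under that unadjusted threshold is not given here, so the 14 cannot be set against it. MCM4, a subunit of the replicative helicase, read 374.6, 410.8 and 333.1 CPM in wild type and 264.1, 251.7 and 257.3 CPM in the mutant line (log2 -0.53 ± 0.12, adjusted p = 0.00872, edgeR). FEN1 (-0.52), CDC45 (-0.46), MCM2 (-0.39) and MCM5 (-0.86) were called too. FEN1 lost its call without wild-type replicate 1 or 2 or kmt2d-/- replicate 3 (adjusted p up to 0.137, edgeR), and CDC45 without any of the 6 libraries (up to 0.126). MCM2 and MCM5, chosen after their values were seen, lost theirs without wild-type replicate 1 or 3 or kmt2d-/- replicate 1 or 3 (up to 0.171 and 0.143). With a GC trend removed, 9 of the list were lower and 0 higher, and of all genes outside 19q 280 were lower and 357 higher. Of 36 tested G2 and mitosis genes, CDC25B (-0.56 ± 0.12), BIRC5 (-0.47) and FOXM1 (-0.37) fell and BUB3 (0.45) rose, with a median of -0.03. CDC25B kept its call in every alternative, BIRC5 lost it without any of 3 libraries (wild-type replicate 1, kmt2d-/- replicates 1 and 3, adjusted p up to 0.182), FOXM1 without any of the 6 (up to 0.22), and BUB3 without any of 5 (all but wild-type replicate 3, up to 0.196). CDKN2C, an inhibitor of CDK4 and CDK6, fell from 207.1, 171.4 and 185.2 CPM to 111.2, 122.2 and 119.5 CPM (log2 -0.68 ± 0.12). It was the 1 called of 26 tested CDK inhibitor, p53 target and apoptosis genes outside 19q (median -0.10).

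Of 33 tested MYC and ribosome biogenesis genes outside 19q, 3 fell (ODC1, BOP1 and SRM) and 1 rose (MXD4), with a median of -0.16. ODC1, the rate-limiting enzyme of polyamine synthesis, read 356.4, 367.9 and 315.9 CPM against 223.3, 181.9 and 220.9 CPM (log2 -0.73 ± 0.15, adjusted p = 0.00357, edgeR). BOP1 (-0.73) and SRM (-0.59) lost their calls without kmt2d-/- replicate 1 or 3 (adjusted p up to 0.0670 and 0.0761). MXD4, a partner of MAX that opposes MYC, was called at 0.95, a call lost without any of 4 libraries (wild-type replicate 2 or any kmt2d-/- replicate, up to 0.152). MTOR fell by 0.68, lost without kmt2d-/- replicate 3 (0.0861). BTG2, an antiproliferative gene, rose from 114.9, 116.6 and 115.4 CPM to 204.4, 166.5 and 186.5 CPM (log2 0.69 ± 0.14). Of 65 ribosomal protein genes outside 19q, 1 fell (RPS23, -0.63, lost without wild-type replicate 1 or kmt2d-/- replicate 1 or 3, up to 0.0974). The other 64 were not called, and the list's median was 0.15.

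Chromatin regulators were mostly not called. Of 9 tested members of the KMT2C and KMT2D complexes, PAXIP1 (-0.61) alone was called, and it lost the call in 10 of 15 alternatives, without each library among them (adjusted p up to 0.196, edgeR). SETD1A, the catalytic subunit of another KMT2 complex, was called at -0.57, but not without wild-type replicate 1 or kmt2d-/- replicate 1 or 3 (adjusted p up to 0.178, edgeR). None of 14 enhancer coactivators and corepressors, 5 lysine 4 demethylases or 11 PRC2 subunits passed edgeR's test. At an unadjusted p under 0.05, 1 coactivator was higher and 3 lower, 0 demethylases higher and 1 lower, and 1 PRC2 subunit higher and 1 lower. No count over all genes at that threshold is given to set beside these. DESeq2 and limma-voom called 0 in the first pair of lists and 1 PRC2 subunit each, lower. Histone genes moved both ways. H2AX, the variant phosphorylated at DNA breaks, read 378.5, 324.7 and 414.8 CPM in wild type and 214.4, 185.3 and 184.6 CPM in the mutant line (log2 -0.93 ± 0.13, adjusted p = 0.00017). H2BC12 rose by 0.85 ± 0.15, and H4C3 fell by 0.70, a call lost without wild-type replicate 1 or 2 or kmt2d-/- replicate 1 or 3 (up to 0.109).

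Of 16 tested water, ion and lipid transport genes outside 19q, 5 fell and 2 rose, with a median of -0.36. Besides AQP3, P2RX5, an ATP-gated channel, fell from 372.9, 304.3 and 330.1 CPM to 192.8, 249.1 and 213.7 CPM (log2 -0.62 ± 0.13), and FADS3 (-0.45) and CLIC1 (-0.48) were called lower. These last lost their calls without wild-type replicate 1 or 3 or kmt2d-/- replicate 1 or 3 (adjusted p up to 0.229 and 0.158, edgeR), and CLIC1 also without kmt2d-/- replicate 2. CLIC1 was chosen after its values were seen. HVCN1, a proton channel linked to B cell receptor signals, rose from 23.8, 26.9 and 28.4 CPM to 53.6, 57.7 and 60.5 CPM (log2 1.11 ± 0.18). ABCG1, a cholesterol exporter, was called at 0.76, a call lost without kmt2d-/- replicate 2 (adjusted p = 0.0524). Of 26 tested redox genes, GSS, which makes glutathione, fell by 0.99 ± 0.18 and GPX1, which uses it, rose by 0.70 ± 0.13. In the lysosome list, GABARAPL1 rose by 0.88 ± 0.19, MCOLN1, a lysosomal calcium channel, fell from 12.2 ± 2.84 to 3.98 ± 1.75 CPM (SD, n = 3), and ASAH1 was called at 1.00, a call lost without wild-type replicate 1 or kmt2d-/- replicate 1 or 3 (up to 0.0804). None of 22 cholesterol synthesis genes and none of 28 glycolysis and hypoxia genes outside 19q were called by edgeR or DESeq2, and limma-voom called 0 and 1. At an unadjusted p under 0.05, 1 and 3 were higher and 2 and 0 lower, without a count over all genes to set beside them.

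Smaller counts came from the remaining lists outside 19q. In the PI3K, AKT and TCL1 list 3 of 13 rose (TCL1B, TCL1A and DDIT4) and MTOR fell (median -0.10). Among 12 growth brakes and feedback genes BTG2 rose, and S1PR2 and DUSP2, a MAP kinase phosphatase, were called lower (median 0.02). Among 11 immediate early genes IER2 was called lower (-0.60) and ZFP36L2, a decay factor for AU-rich RNA, higher (0.54). Of 23 lipid genes FAAH and ACSS2, which makes acetyl-CoA from acetate, were called lower and LPIN1 higher. In the ATF4 list DDIT4 (0.60) and PCK2 (0.43) of 24 were called higher. HSPA5, the main endoplasmic reticulum chaperone, was the 1 called of 21 folding genes (-1.11), and NDUFS7 the 1 of 38 oxidative phosphorylation genes (-0.43). Except for BTG2, FAAH and TCL1B, the calls of this paragraph were lost without at least 1 library. DDIT4 was lost without wild-type replicate 3 or kmt2d-/- replicate 1 (adjusted p up to 0.0804, edgeR), IER2 without kmt2d-/- replicate 3 (0.0521) and PCK2 and ZFP36L2 without any of the 6 (up to 0.0976 and 0.188). MTOR was lost without kmt2d-/- replicate 3 (0.0861), S1PR2 without wild-type replicate 1 or kmt2d-/- replicate 1 or 3 (up to 0.0598) and TCL1A without replicate 1 or 2 of either line (up to 0.0737). DUSP2 was lost without any but wild-type replicate 2 (up to 0.105), and LPIN1 and HSPA5 without any but wild-type replicate 3 (up to 0.117 and 0.198). ACSS2 and NDUFS7 were lost without replicate 1 or 3 of either line (up to 0.168 and 0.195). None of 15 adhesion and integrin genes or 13 heat shock genes were called by edgeR, DESeq2 or limma-voom, although with a GC trend removed 1 adhesion gene was called higher. At an unadjusted p under 0.05, 2 adhesion genes were higher and 0 heat shock genes differed, again without a count over all genes.

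**Figure D3:**
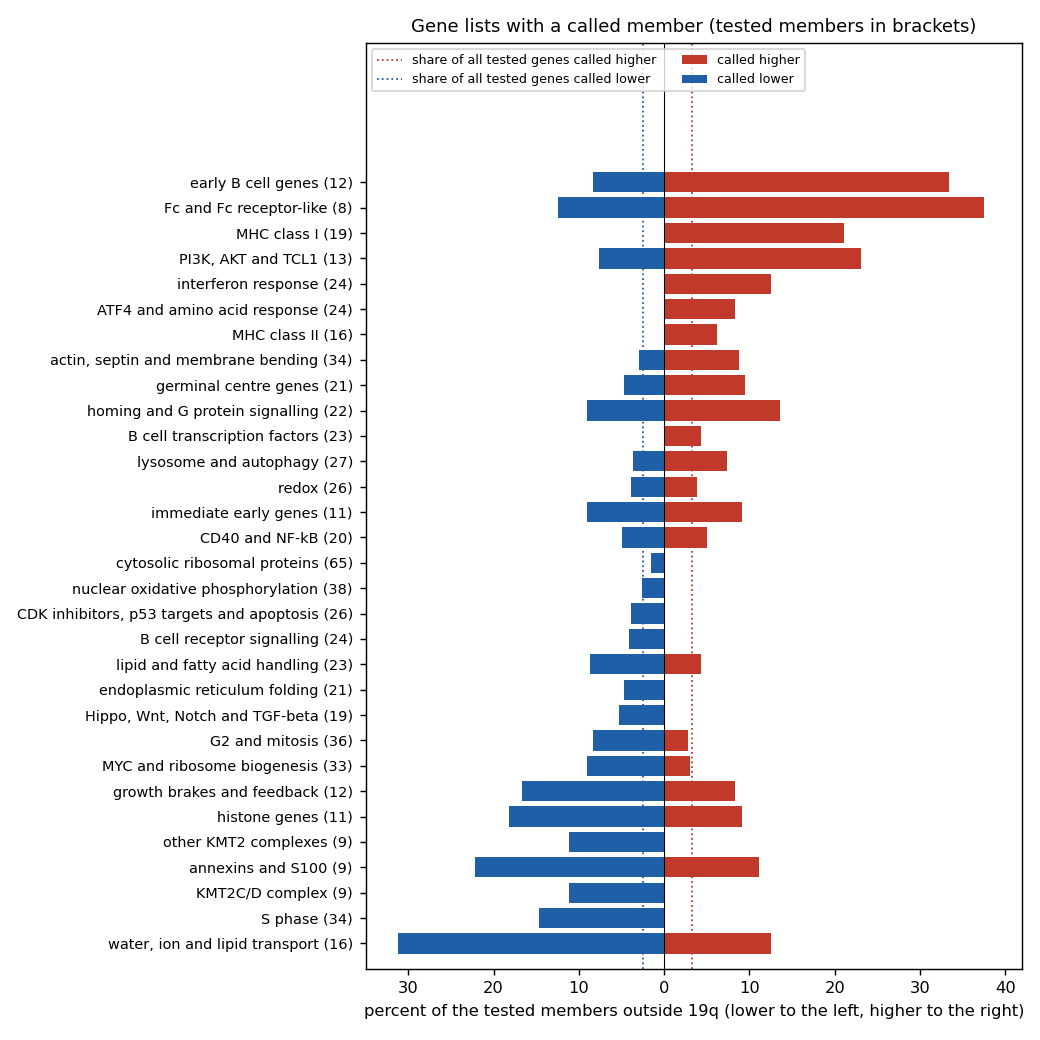
Percent of tested members outside 19q called higher (red, right) and lower (blue, left) in the kmt2d-/- line, for lists with a called member. Dotted lines mark the share of all 8433 tested genes called higher (3.26%) and lower (2.43%). Lists of few genes move in large steps: 1 of 8 is already a bar well past the line.

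Long noncoding RNAs rose more often than they fell. Of 385 tested outside 19q, 39 were called higher (10.1%) and 2 lower (0.52%), against 2.9% and 2.54% of 7833 protein-coding genes. Across the leave-one-library-out fits, 24 to 33 were higher and 1 to 3 lower. The 2 that fell were FAM167A-AS1 (-1.67) and MIR193BHG (-0.90). The latter lost its call without any of 5 libraries (all but wild-type replicate 2, adjusted p up to 0.184, edgeR). The abundance of long noncoding genes was lower, with a median of 10.7 CPM against 31.3 for protein-coding genes. OLMALINC read 92.8, 81.3 and 96.2 CPM in wild type and 203.2, 198.0 and 191.1 CPM in the mutant line (log2 1.13 ± 0.14, adjusted p = 4.35e-05, edgeR). MDS2 went from 207.7, 266.6 and 213.5 CPM to 428.9, 410.2 and 446.1 CPM (log2 0.90 ± 0.13), and LINC00926 from 10.8, 15.6 and 8.82 CPM to 36.2, 30.2 and 40.6 CPM (log2 1.59 ± 0.25). LINC01754 rose by 0.96 ± 0.15. Of the 39, 19 were annotated as antisense, as were 146 of all 385 tested. The 19 include XXYLT1-AS2 (2.05 ± 0.27), RCAN3AS (1.25 ± 0.17), TFAP2A-AS1 (1.16 ± 0.16) and PDCD4-AS1 (1.05 ± 0.13). Since strand was not stated, reads of antisense genes cannot be told apart from those of their partners. Apart from OLMALINC, LINC00926, XXYLT1-AS2 and TFAP2A-AS1, these were chosen after their values were seen.

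The lines with mutant EZH2 gave another measurement of KMT2D loss, double mutant minus EZH2 mutant, in 5 libraries that share none with the first. There, 193 of 8433 genes outside 19q were called (2.29%), 57 higher (0.676%) and 136 lower (1.61%). Over all tested genes the number was 202, and it was 99 without double mutant replicate 3 and 102 without EZH2 mutant replicate 1, which leaves 1 library of that line. Of the 480 genes called against wild type, 28 were called in the same direction there and 18 in the opposite one. The 28 are 5.83% of the 480 and 14.5% of the 193. Of 205 that fell, 22 fell again, 1 rose and 141 (68.8%) had the same sign. Of 275 that rose, 6 rose again, 17 fell and 145 (52.7%) had the same sign. Calls in that pair leaned downward among all 8433 genes too, 136 against 57, with a median log2 fold change of -0.01. The median log2 fold change of the 275 was 0.98 against wild type and 0.03 in the EZH2 mutant lines, and of the 205, -0.68 and -0.15. The difference between the pairs of lines was called for 69 of the 275, all against the direction of the rise, and for 21 of the 205, 19 against that of the fall. That difference contains the change against wild type by which these genes were chosen, so its direction among them is no separate result. Over all 8433 genes that difference was called for 187 (2.22%), 56 above 0 (0.664%) and 131 below (1.55%).

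HOXA7 fell in both measurements. It read 19.5 and 15.4 CPM in the EZH2 mutant and 0.494, 0 and 1.74 CPM in the double mutant. CADPS had 23 counts in the EZH2 mutant and 0 in the double mutant, at least 13-fold lower. GPRC5C had 47 and 3, a ratio of 26.6 (95% interval 8.55 to 133, counting error only). These 3 genes were also among the largest falls against wild type. REPIN1, a zinc finger protein, read 77.8 and 90.3 CPM in the EZH2 mutant and 16.8, 15.1 and 17.4 CPM in the double mutant (log2 -2.35), beyond its -0.89 against wild type. ITGA3, an integrin subunit (-1.06 and -1.86), RPRML (-1.09 and -1.43), ANXA6 (-0.88 and -1.10) and RHOBTB2 (-1.27 and -0.85) fell in each. Among the rises, TCL1B read 102.4 and 100.3 CPM in the EZH2 mutant and 219.1, 223.6 and 189.5 CPM in the double mutant (log2 1.06, adjusted p = 0.00052, edgeR), and OLMALINC (0.85) and TFAP2A-AS1 (1.22) rose again. Of all 385 long noncoding RNAs, 3 were called higher and 2 lower there (median 0.01), and 22 of the 39 that rose against wild type were above 0.

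BIN1, VPREB1 and DBN1 were among the 69 rises with a called difference between the pairs of lines. DBN1 read 33.8 and 33.3 CPM in the EZH2 mutant and 2.47, 4.53 and 1.74 CPM in the double mutant, so it fell there by 3.56 on the log2 scale. BIN1 fell by 2.50, from 12.3 and 7.45 CPM to 0.987, 3.02 and 1.16 CPM. IFITM2 (-2.05), MT2A, a metallothionein (-2.29), RIPOR2, a regulator of small GTPases (-2.77), RHOC, a small GTPase (-2.06), LGALS1, which encodes galectin 1 (-1.24), and CXCR5 (-1.19) likewise fell where they had risen against wild type. S100A10 had 0 counts in all 5 of these libraries, so no difference could be measured there. VPREB1 had 6 counts in the EZH2 mutant and 3 in the double mutant.

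**Figure D4:**
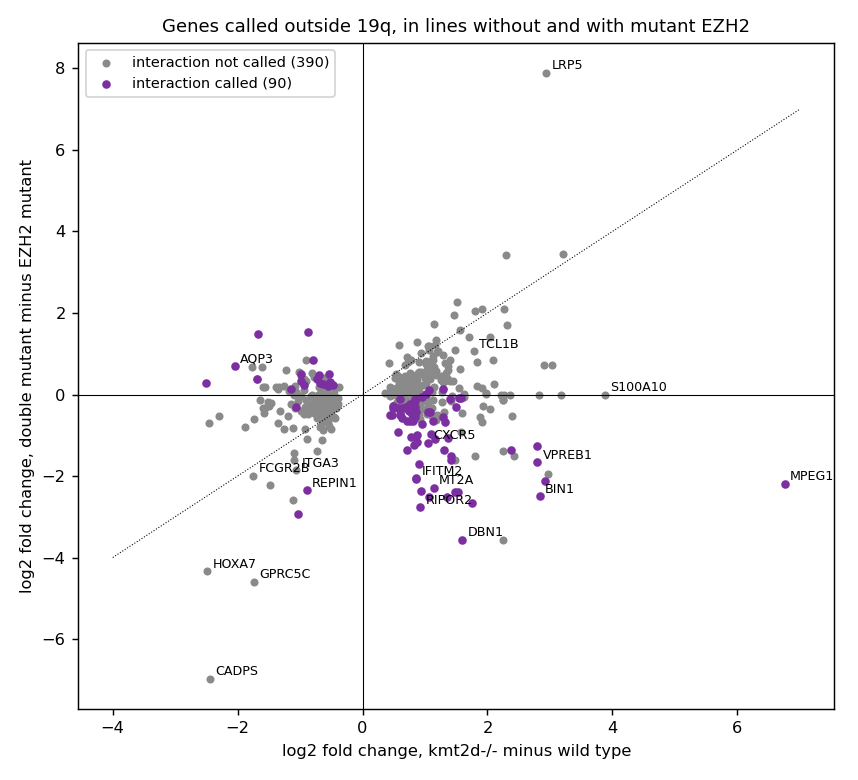
For the 480 genes called outside 19q, the log2 fold change against wild type (x axis) and between the double mutant and the EZH2 mutant (y axis), which use separate libraries. The dotted line marks equal changes, and the 90 purple genes had a called difference between the pairs of lines. Of the 205 falls, 141 lie below 0 on the y axis, and of the 275 rises 145 lie above it. Some large falls, such as HOXA7 and GPRC5C, lie at lower left. The outlying values of LRP5, CADPS and MPEG1 are fitted against 0 counts.

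On the long arm of chromosome 19, 195 of 380 genes were called (51.3%), 190 lower (50.0%) and 5 higher (1.32%). The split point was found from the data, by least squares along the arm. The 81 genes nearest the centromere, POP4 to FAM98C, had a median log2 fold change of 0.02, with 5 called higher and 2 lower. The 299 genes from MAP4K1 (its start at position 38587641 of GRCh38) to the end of the arm had a median of -0.82, 56.7% of wild type, with 188 called lower and 0 higher by edgeR. DESeq2 and limma-voom called 0 higher too, and 1 was higher at an unadjusted p under 0.05, without a count over all genes. The 3 mutant libraries gave medians of -0.79, -0.69 and -0.81 there. Between double and EZH2 mutant the median of the same genes was -0.02. Elsewhere, 322 blocks of 25 neighbouring genes had medians between -0.26 and 0.52.

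Among called genes of the arm with a mean of at least 10 CPM and no overlap between groups, the largest falls were CLEC11A, a secreted growth factor (27.2, 25.5 and 25.7 CPM in wild type, 4.27, 5.37 and 3.45 in the mutant line, log2 -2.61 ± 0.29), TEAD2, a Hippo pathway factor (-2.06), ZSWIM9 (-1.99), C19orf81 (-1.87) and TRPM4, a cation channel (-1.79 ± 0.17). B cell, growth and apoptosis genes that lie in the stretch shared its shift. They include POU2F2 (-1.18), the octamer-binding factor OCT2, CD79A (-0.94), a signalling chain of the B cell receptor, AKT2 (-1.09), RELB (-0.70), LIG1 (-1.13), POLD1 (-1.09), FBL (-0.82), BAX (-0.92) and ATF5 (-1.12). SPIB (-1.08), a B cell factor, lost its call without kmt2d-/- replicate 3 (adjusted p = 0.0757, edgeR). ZNF529-AS1, nearer the centromere, was called higher (0.82), but not without wild-type replicate 1 or 2 or kmt2d-/- replicate 3 (up to 0.142).

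**Figure D5:**
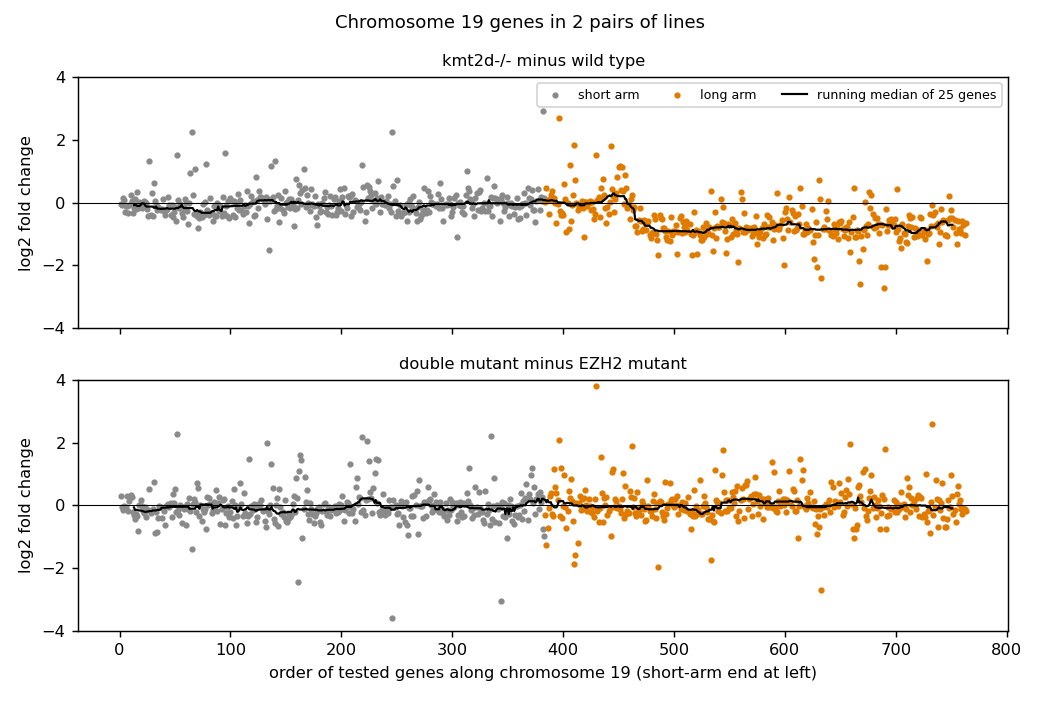
Log2 fold change of tested chromosome 19 genes in their order along the chromosome, for kmt2d-/- minus wild type (top) and double mutant minus EZH2 mutant (bottom). Grey points are the short arm, orange the long arm, and the line is a running median of 25 genes. In the top panel the median drops to about the stretch's -0.82 partway along the long arm and stays there, which the bottom panel does not show.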

How the data were processed

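RNA of 12 samples from 4 lines was measured by MARS-seq. The authors deposited a table of counts per gene, described as corrected without saying for what. Per the submitters' processing notes, Trim Galore 0.6.0, cutadapt 1.15, FastQC, STAR 2.7.0f and DESeq2 were used. Build, annotation, strand and the program that counted are not given in the sources used here. The table has 11 libraries; replicate 3 of the EZH2 mutant was not analysed here, and DM columns were read as double mutant. Of 28278 genes, 13188 held no count in any library. The shallowest library has 1118710 counts and the deepest 3107871, where 3 counts are 2.68 and 0.965 CPM.

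The count test was edgeR 4.0.16 (R 4.3.3), with filterByExpr at a minimum count of 10, TMM factors, 1 term per line over all 11 libraries and robust quasi-likelihood, Benjamini-Hochberg adjustment over 8813 genes and a threshold of 0.05. CPM values are normalised by TMM. Alternatives were RLE factors, no filter (15090 genes), a minimum count of 30 (6668 genes), DESeq2 1.42.0, limma-voom (limma 3.58.1), a replicate block, removal of a GC trend, only the groups compared, 19q left out, and each library left out. On simulated counts for the 8813 genes, 17% of 100 genes changed 1.5-fold and 57% of 100 changed 2-fold were recovered for kmt2d-/- against wild type, and 10% and 43% for double mutant against EZH2 mutant.

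Gene places came from GENCODE 29 or RefSeq annotation of GRCh38 by symbol, and 602 genes were not placed. The arm 19q is what lies beyond the widest gene-free gap of chromosome 19. Members and the 40 gene lists (1102 entries) were chosen with earlier results of these data known. Genes were named by a rule: KMT2D and EZH2, the 15 largest called changes each way outside 19q at a mean of at least 10 CPM with no overlap between groups, on 19q up to 5 each way under the same conditions, and per list up to 5 called members by adjusted p. Others were chosen after their values were seen, those compared between pairs of lines among them. Some genes, and a list whose call rests on one of them, are counted but not reported here.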

Additional observations from a re-analysis of the deposited data

Results flagged for a closer look

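The change with KMT2D loss was tested for a difference between the lines with mutant EZH2 and the lines without it, in the edgeR quasi-likelihood fit. The values below are log2 differences, double mutant minus EZH2 mutant minus the difference of kmt2d-/- and wild type. They are given for named genes called between kmt2d-/- and wild type where that difference between pairs was called too. Since it contains the change by which these genes were chosen, its direction among them is no separate result.

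The difference was below 0 for BIN1 (-5.34), DBN1 (-5.16), F12 (-5.03), VPREB1 (-4.46), PGGHG (-4.42), TMEM54 (-4.07), PRF1 (-3.88), LBH (-3.75), RIPOR2 (-3.69), MFGE8 (-3.57), MT2A (-3.43), C16orf74 (-3.31) and RHOC (-2.93). It was also below 0 for SP140 (-2.92), IFITM2 (-2.91), FCMR (-2.66), GRIK3 (-2.60), FCRL2 (-2.25), CXCR5 (-2.23), LAT2 (-2.07), LGALS1 (-2.05), USP2 (-1.90), BFSP2 (-1.82), MXD4 (-1.68), BROX (-1.66) and DCTD (-1.48), and for PDCD4-AS1 (-1.48), REPIN1 (-1.46), H2BC12 (-1.28), LINC01754 (-1.01), ADA2 (-1.005), GPX1 (-1.001), ABCG1 (-0.99), BTG2 (-0.99), TCL1A (-0.94), S1PR4 (-0.94) and NLRC5 (-0.71). MPEG1, at -8.95, had 0 counts in wild type, so its fitted value depends on the prior count.

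Outside 19q the difference was above 0 for PTPN18 (0.75), CDC25B (0.77), GPER1 (0.84), CDKN2C (0.95), H2AX (1.16), H4C3 (1.19), LZTS1 (1.28), GSS (1.48), HELZ2 (2.40), AQP3 (2.74) and FAM167A-AS1 (3.14). On 19q it was above 0 for RELB (0.86), KCNN4 (0.88), SLC1A5 (0.88), POU2F2 (0.90), BCL2L12 (0.99), ZFP36 (1.07), LIG1 (1.32), TRPM4 (1.92), ATF5 (1.95), ZSWIM9 (1.99), C19orf81 (2.51) and CLEC11A (2.90), genes of the stretch whose median log2 fold change was -0.82 for kmt2d-/- against wild type and -0.02 for double against EZH2 mutant. The part of the stretch in these values was not tested.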

How the results depend on the processing

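With 1 library left out, genes called between kmt2d-/- and wild type numbered 339 to 669 against 675 over all genes, and 213 to 486 against 480 outside 19q. For double mutant against EZH2 mutant they numbered 99 to 242 against 202, and for the difference between the pairs of lines 147 to 309 against 266. The median log2 fold change of 19q was -0.76 to -0.66 against -0.71. Leaving out an EZH2 mutant library leaves 1, which is assumed to vary like the other groups. Without a filter the last 2 counts were 381 and 482, with a GC trend removed 323 and 447, and with only the groups compared the double mutant count was 92. The 19q median was -0.64 with a GC trend removed. The other alternatives kept these counts within 1.5 times. Outside 19q the alternatives, with each library left out among them, kept 43.8% to 99.6% of the 480 calls, the lowest share without kmt2d-/- replicate 3.

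Replicate numbers are shared by the lines. Deviations from the group means correlated at -0.16, -0.24 and -0.03 between same-numbered wild-type and kmt2d-/- libraries. Pairs with different numbers gave -0.15 to 0.25. With 3 libraries per line these values cannot tell whether same-numbered libraries were handled together, and the lines with mutant EZH2 were not compared in this way. With a replicate block, 629 genes were called over all and 441 outside 19q, 151 for double mutant against EZH2 mutant and 230 for the difference between pairs.

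Of 175 named genes called, 103 were called under every alternative that gave them an adjusted p. For some, such as MPEG1 with 11, these were fewer than the 15 run. RPSAP58, which was not called, changed sign with limma-voom (-0.37). It ranged from -2.22, without kmt2d-/- replicate 2, to 3.56 with 1 library left out. Depth limits small changes: at 1.5-fold the self-test recovered 17% of planted genes.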

Other observations

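RPSAP58, a pseudogene of ribosomal protein SA on the short arm of chromosome 19, read 688.1 CPM in kmt2d-/- replicate 2 and 5.79 and 6.89 CPM in the other two kmt2d-/- libraries. Wild-type libraries read 41.3, 36.0 and 11.9 CPM, and the remaining 5 libraries 7.40 to 25.6 CPM. Its reads cannot be told apart from those of other copies of the gene, and it was chosen after its values were seen.

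Among blocks of 25 neighbouring tested genes outside 19q, the block with the highest median log2 fold change ran from CDKAL1 to H2AC14 on the short arm of chromosome 6. Its median was 0.52, with 7 genes called higher and 1 lower. The genes called higher there include GPLD1 (1.199), which cleaves glycolipid anchors, ALDH5A1 (0.89), a mitochondrial dehydrogenase, and CARMIL1 (1.93), an actin regulator, besides RIPOR2 (0.93), BTN3A2 (0.78), BTN3A3 (1.02) and H2BC12 (0.85). H4C3 was called lower (-0.70). The calls of BTN3A3 and H4C3 were lost without wild-type replicate 1 or 2 or kmt2d-/- replicate 1 or 3 (adjusted p up to 0.105 and 0.109, edgeR), the first also with DESeq2. ALDH5A1 was lost without any library but wild-type replicate 3 (up to 0.119), and CARMIL1 without wild-type replicate 1 or 2 (up to 0.136), with DESeq2, a replicate block or a GC trend removed, and with 19q left out. BTN3A2 and BTN3A3 are near-identical, so their reads cannot be told apart with certainty.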
